A study of Homo sapiens with 12 samples.

Results

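NEAT1, MALAT1, TALAM1 and KCNQ1OT1 are long non-coding RNAs that stay largely in the nucleus, and NONO, SFPQ and PSPC1 encode the DBHS proteins (Drosophila behaviour, human splicing) that coat NEAT1 in nuclear bodies called paraspeckles. These 7 genes were taken by name from a table of 63241 Ensembl genes. All 7 had enough counts to be tested. The RNA came from HCT116, a human colorectal carcinoma line, sequenced as rRNA-depleted total RNA, so transcripts without a poly(A) tail could be counted.

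A paraspeckle is built on NEAT1. The gene gives a short polyadenylated RNA and a long RNA that share their 5′ end, and the long RNA is the scaffold on which NONO, SFPQ and other RNA-binding proteins assemble. MALAT1, from the neighbouring gene, gathers in nuclear speckles beside splicing factors, and its antisense transcript is TALAM1. The 3′ ends of long NEAT1 and of MALAT1 are not made by cleavage and polyadenylation: RNase P cuts at a tRNA-like fold, and the end left behind is protected by a triple helix of U-rich and A-rich stretches. KCNQ1OT1 is an imprinted antisense RNA that is transcribed within KCNQ1 and is known to silence neighbouring genes in cis. All of these RNAs are made by RNA polymerase II.

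The 12 libraries formed 4 groups of 3. Controls were HCT116 cells labelled WT and given DMSO for 8 h. The POLR1A-AID1 line carries a degron on POLR1A, the largest subunit of RNA polymerase I. Doxycycline at 1 µg/ml switched on its OsTIR1 receptor from 24 h earlier, and auxin (indole-3-acetic acid) was then given at 500 µM for 8 h. POLR2A-AID2 cells, with a degron on the largest subunit of RNA polymerase II, received the auxin analogue 5-Ph-IAA at 1 µM for 8 h. In the fourth group, WT cells were given actinomycin D, which binds DNA and blocks transcription, at 5 µg/mL for 6 h. The times are those of the sample titles, whereas 6 h is the only harvest time in the extraction protocol. The degron lines were not analysed here without their ligand, so effects of the line, of doxycycline and of the ligands cannot be told apart from loss of the subunit. By the titles, actinomycin D was given for 6 h and DMSO to the controls for 8 h. Effects of the drug and of that difference in time cannot be told apart either. Below, the degron groups are called POLR1A-depleted and POLR2A-depleted after the intended loss. The replicates are described as technical, as dishes handled separately within a day, so p-values measure only the spread between such dishes.

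The sequences below show the ends that set NEAT1 and MALAT1 apart from ordinary messenger RNAs, read 5′ to 3′ from GENCODE 29 transcripts on GRCh38 and written with T for U. Capitals mark the first U-rich stretch, the second U-rich stretch and the A-rich stretch, in that order. The last 120 bases of the long NEAT1 model lie at chr11:65445421-65445540 on the plus strand, and the MALAT1 element lies at chr11:65505997-65506116 on the same strand.
NEAT1 end: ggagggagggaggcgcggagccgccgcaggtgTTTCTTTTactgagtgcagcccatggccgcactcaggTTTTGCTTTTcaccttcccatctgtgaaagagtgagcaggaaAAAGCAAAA
MALAT1 element: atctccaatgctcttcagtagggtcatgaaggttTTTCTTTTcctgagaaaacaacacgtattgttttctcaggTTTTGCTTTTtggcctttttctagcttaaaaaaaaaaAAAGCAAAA
The letters TTTCTTTT, TTTTGCTTTT and AAAGCAAAA occur in both, in the same order. They were picked from these 2 sequences and searched on the sense strand in the last 120 bases of 200764 GENCODE transcripts. TTTCTTTT was found in 1.48% of those ends, TTTTGCTTTT in 0.117% and AAAGCAAAA in 0.332%. All 3 were found together in 1 transcript end, that of long NEAT1. The MALAT1 model runs on past its element, so its own window misses the motifs.

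The 60 bases that follow the MALAT1 element, at chr11:65506117-65506176 on the plus strand, hold the tRNA-like small RNA that RNase P releases. Short NEAT1 instead ends after a polyadenylation signal, shown in capitals for chr11:65426454-65426513 on the plus strand.
MALAT1 downstream: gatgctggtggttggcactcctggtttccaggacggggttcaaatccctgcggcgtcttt
Short NEAT1 end: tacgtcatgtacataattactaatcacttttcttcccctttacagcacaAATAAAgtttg
The long NEAT1 model has 22743 bases, and the short end shown lies at its base 3716. The model from which that end was taken has 2994 bases. It therefore does not hold the whole stretch from the start of the long model to that end. Counts here are per gene, so they do not separate the short from the long RNA.

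Library totals ran from 11289272 to 27394059 estimated counts, with the actinomycin D libraries the deepest as a group (20302228 to 27394059) and the POLR2A-depleted libraries the shallowest (11289272 to 15037531). The epithelial markers EPCAM, KRT8, KRT18, KRT19, CDH1 and CLDN4 were detected in every group, and their summed level was 3550–4020 CPM in controls and 3220–3500 with actinomycin D. In the depleted groups it was 1980–2130 CPM (POLR1A) and 2380–2580 CPM (POLR2A). Single markers did not all follow the sum. With POLR1A depleted 5 were lower, while the mean of CLDN4 was 77.7 CPM against 58.6 in controls. With POLR2A depleted 5 were lower, while EPCAM was at 247 CPM against 195. With actinomycin D 3 were lower, KRT8 overlapped its controls, and EPCAM (274 CPM) and CDH1 (119 against 85.8) were higher. CPM is the share of a library's counts, times 1e6, with the total scaled by TMM (trimmed mean of M values). No measure of RNA amount per cell entered the scaling. Words such as rose and fell therefore describe changes in this share, and changes in amount per cell cannot be read from it. The 8 markers of fibroblasts, blood and endothelium summed to 10.6–10.7 CPM in controls, 14–15.6 with actinomycin D, and 24.5–26 (POLR1A) and 23.5–30.3 (POLR2A) in the depleted groups. CD3E was at 0 outside the POLR2A-depleted group, DCN was at 0 in controls, and COL1A1 had the highest mean of these markers in every group. The mean of COL1A1 was 7.46 CPM in controls, 22.1 with POLR1A depleted and 14.1 with POLR2A depleted. PECAM1 had a mean of 0.163 CPM in controls, 0.202 with POLR1A depleted and 7.92 with POLR2A depleted. The part of these marker differences in the results below was not tested. In bulk RNA, fewer cells of a kind and less RNA per cell cannot be told apart.

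Against the controls, 3 of the 7 genes passed a Benjamini-Hochberg adjusted p of 0.05 in edgeR's quasi-likelihood test with POLR1A depleted, 1 higher and 2 lower. Of all 23593 genes tested, 39.1% passed in that comparison, 20.6% higher and 18.6% lower. With POLR2A depleted 4 genes passed, 2 in each direction, where 61.4% of all genes passed (33.2% higher and 28.2% lower). With actinomycin D 6 genes passed, 4 higher and 2 lower, where 53.4% of all genes passed (24.9% higher and 28.5% lower). The 3 comparisons share their control libraries. Counting genes whose treated libraries all lay on one side of all controls gave 3 of 7 with POLR1A depleted (48% of all genes), 5 of 7 with POLR2A depleted (65.2%) and 7 of 7 with actinomycin D (58.1%). These counts hold for CPM scaled by TMM, and as a percentage of library totals NEAT1 overlapped its controls with actinomycin D. With POLR1A depleted the number fell from 3 to 1 without POLR1A-depleted replicate 1 or 2 or without control replicate 3, as the accounts of KCNQ1OT1 and NONO below show. The median log2 fold change of all genes was 0.01, 0.08 and -0.06 in the 3 comparisons. It became 0.37, -0.2 and 0.82 when libraries were scaled to the 13 mitochondrial mRNAs, and 0.06, 0.21 and -0.18 when library totals alone were used. Higher genes made up 52.6%, 54.1% and 46.7% of the calls, against 85.1%, 38.6% and 85.2% with the mitochondrial scaling and 57.2%, 61.7% and 39.1% with library totals. The mitochondrial mRNAs themselves moved with actinomycin D: all 13 fell by the TMM scaling, with a median log2 fold change of -1.63 and a range of -4.06 to -0.19. With POLR1A depleted 4 of the 13 fell (median -0.22), and with POLR2A depleted 2 rose (median 0.26). Values under this scaling are therefore relative to a reference that fell with actinomycin D. Small shifts of single genes are mostly given below with the scaling that changes them. Counts for the gene lists are given under some of the scalings only.

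NEAT1 was higher with either polymerase subunit depleted, and more so with POLR2A depleted. The gene (ENSG00000245532) spans chr11:65422774-65445540 on the plus strand of GRCh38, and GENCODE annotates the whole span as exonic over its transcripts. Control libraries held 198, 136 and 182 CPM, a mean of 172 ± 32.4 (SD, n = 3). The POLR1A-depleted libraries held 450, 480 and 327 CPM, and the POLR2A-depleted libraries held 594, 676 and 616. Every depleted library lay above every control, and every POLR2A-depleted library lay above every POLR1A-depleted one. The rise was 2.44-fold with POLR1A depleted (log2 fold change 1.28, SE 0.19, edgeR adjusted p = 0.000496) and 3.66-fold with POLR2A depleted (1.87, SE 0.19, adjusted p = 2.66e-05). Both calls held in all 13 alternatives run for each comparison.

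With actinomycin D the NEAT1 libraries held 209, 266 and 217 CPM, a mean of 231 ± 31.2. All 3 lay above the highest control in CPM scaled by TMM. As a percentage of all counts they overlapped the controls, at 0.0191% to 0.0244% against 0.0129% to 0.0208%. The log2 fold change of 0.43 (SE 0.19, 95% interval 0 to 0.85) did not pass the threshold, with an edgeR adjusted p of 0.0864. It passed with RLE size factors (0.47, adjusted p = 0.0497), with DESeq2 (0.47, adjusted p = 0.0159) and with the mitochondrial scaling (1.31, adjusted p = 0.00306). With library totals alone it was 0.30 (edgeR adjusted p = 0.283). The 6 fits that each left out 1 library gave 0.30 to 0.55, and the call was not gained in any of them.

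The POLR1A-depleted libraries were lower in NEAT1 than the POLR2A-depleted ones by 0.59 on the log2 scale. Its fitted log2 difference was -0.59 (SE 0.18, edgeR adjusted p = 0.0202), in a comparison where 62.2% of all genes passed. The call was lost without POLR1A-depleted replicate 3 (-0.41, adjusted p = 0.0589), without POLR2A-depleted replicate 2 (-0.55, adjusted p = 0.0531) and without the filter on low counts (-0.5, adjusted p = 0.0609), and the sign turned with the mitochondrial scaling (0.06). Actinomycin D libraries were lower than both, with log2 differences of -0.86 against POLR1A depletion (edgeR adjusted p = 0.00334) and -1.45 against POLR2A depletion (adjusted p = 1e-04), and neither passed with the mitochondrial scaling (-0.31 and -0.25).

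**Figure D1:**
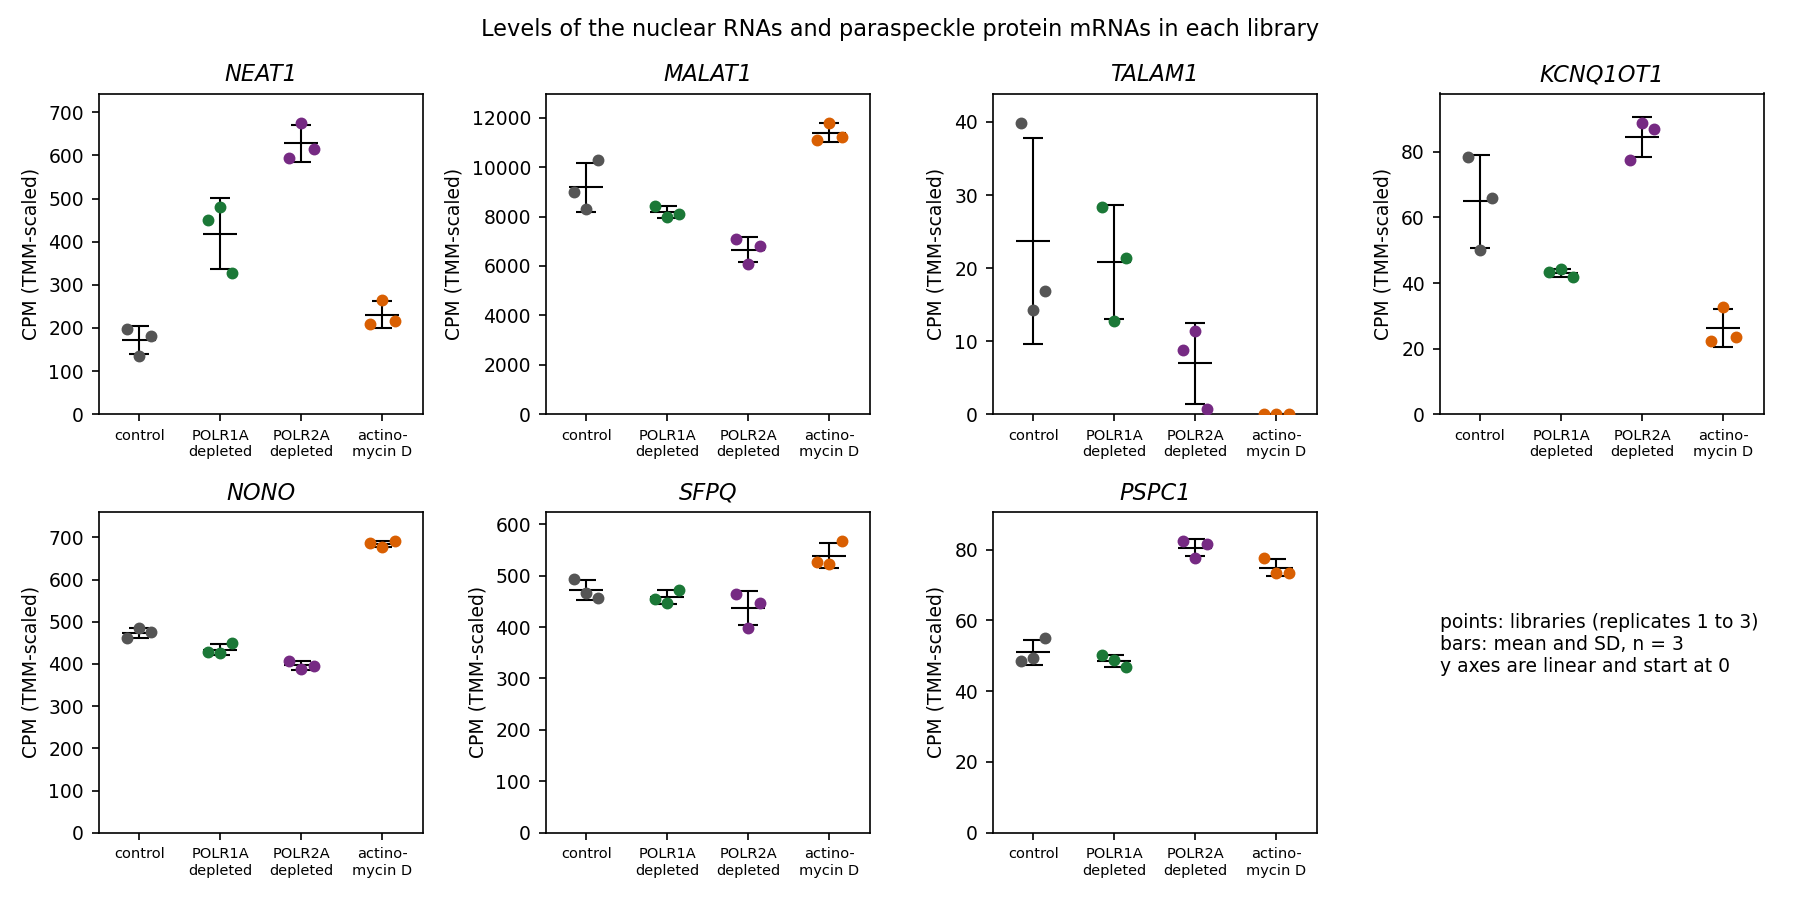
Level of each of the 7 genes in every library, in CPM scaled by TMM on linear axes that start at 0. Points are libraries in the order of their replicate numbers, and bars are the mean and SD of 3 libraries. NEAT1 lies at 327 to 676 CPM in the depleted libraries and at 136 to 198 CPM in the controls, and TALAM1 is at 0 in all 3 actinomycin D libraries.

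MALAT1 was among the most abundant RNAs in every library, and its changes were smaller than those of NEAT1. The gene (ENSG00000251562) spans chr11:65497688-65506516 on the plus strand, 52147 bases beyond NEAT1, and is annotated as exonic throughout. It took 0.791% to 1% of all counts in controls, ranking 5th to 7th of all genes. Control levels were 9000, 8320 and 10300 CPM (mean 9190 ± 986). With POLR2A depleted the levels were 7090, 6090 and 6790 CPM, all below the lowest control. That was a fall of 0.47 on the log2 scale, to 0.724 of the control level (SE 0.07, edgeR adjusted p = 5.65e-06), and it held in every alternative run (-0.77 with the mitochondrial scaling).

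With actinomycin D MALAT1 stood at 11100, 11800 and 11200 CPM, all above the highest control. The log2 rise was 0.30 (SE 0.07, edgeR adjusted p = 0.00072), and it no longer passed when library totals alone were used (0.18, adjusted p = 0.0557), while the mitochondrial scaling gave 1.22. With POLR1A depleted the levels of 8440, 7980 and 8090 CPM overlapped those of the controls. The log2 difference there was -0.17 (SE 0.07, 95% interval -0.31 to -0.03, edgeR adjusted p = 0.0539). It passed without control replicate 2 (-0.23, adjusted p = 0.0106), with RLE size factors, with DESeq2 and without the filter on low counts, and it was 0.18 with the mitochondrial scaling (adjusted p = 0.223). Set against each other, actinomycin D libraries were higher in MALAT1 than POLR2A-depleted ones by 0.77 on the log2 scale (edgeR adjusted p = 3.31e-09) and higher than POLR1A-depleted ones by 0.47 (adjusted p = 4.05e-06). The POLR1A-depleted libraries stood above the POLR2A-depleted ones by 0.30 (adjusted p = 0.000806).

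NEAT1 and MALAT1, neighbours on the same strand, therefore moved in opposite directions with POLR2A depleted. Per kilobase of annotated exon, MALAT1 held 1040 CPM in controls and NEAT1 held 7.56, each a mean over 3 libraries. NEAT1 amounted to 0.634% to 0.855% of MALAT1 per kilobase in control libraries. With actinomycin D it was 0.73% to 0.877%. Depletion gave a share of 1.57% to 2.33% for POLR1A and of 3.25% to 4.3% for POLR2A. The ranges of controls and actinomycin D overlapped, and those of the depleted groups stood apart from both and from each other. Because the share is taken within a library, it does not depend on how libraries are scaled. It does depend on the length used for NEAT1, the whole span of 22767 bases. Reads of the short RNA fall on only part of that span. The mix of short and long RNA, which these counts do not separate, can therefore affect the share. In rank among all genes, NEAT1 stood between 779th and 1495th in controls. It stood between 187th and 398th in the POLR1A-depleted libraries and between 103rd and 133rd in the POLR2A-depleted ones.

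TALAM1 is the transcript from the opposite strand of MALAT1. RefSeq places it on the minus strand at chr11:65499312-65507432 of GRCh38.p14, 8121 bases that cover 81.6% of MALAT1, and its Ensembl identifier in the table is ENSG00000289740. The strand setting of the counting is not given in the sources used here, so reads of TALAM1 and of MALAT1 cannot be told apart with certainty. Controls held 39.9, 14.3 and 16.9 CPM, POLR1A-depleted libraries 28.3, 12.7 and 21.4, and POLR2A-depleted libraries 8.78, 11.4 and 0.746. Control replicate 1 stood well above the other two controls, POLR1A-depleted and control libraries overlapped, and all POLR2A-depleted libraries lay below the lowest control.

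With actinomycin D TALAM1 was listed at 0 in all 3 libraries, while the same libraries held 206000 to 296000 estimated counts of MALAT1. Taking 3 counts over the group as the floor, TALAM1 was at least 483-fold lower than in controls (0 against 1040 counts over the group), at least 442-fold lower than with POLR1A depleted and at least 164-fold lower than with POLR2A depleted. These bounds cover counting error only. The test called TALAM1 lower than in controls (edgeR adjusted p = 0.00287). Estimated counts are divided among overlapping models, so a value of 0 can also be an outcome of that division, which was not tested. Against the controls the log2 difference was -1.69 with POLR2A depleted (95% interval -3.58 to 0.21, adjusted p = 0.108) and -0.18 with POLR1A depleted (95% interval -1.88 to 1.53, adjusted p = 0.885), and both intervals span 0. The second value was 0.41 without control replicate 1, 0.09 without POLR1A-depleted replicate 2 and 0.07 with the mitochondrial scaling.

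For every 1000 MALAT1 counts, controls held 4.43, 1.72 and 1.65 TALAM1 counts and POLR1A-depleted libraries held 3.35, 1.59 and 2.65. The POLR2A-depleted libraries held 1.24, 1.88 and 0.11. On this ratio the POLR2A-depleted group overlapped the controls, because its replicate 2 lay above 2 of the 3 control libraries. In the direct comparisons TALAM1 was lower with actinomycin D than with POLR2A depleted (edgeR adjusted p = 0.0106), a call lost when only those 2 groups were fitted (adjusted p = 0.0792).

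**Figure D2:**
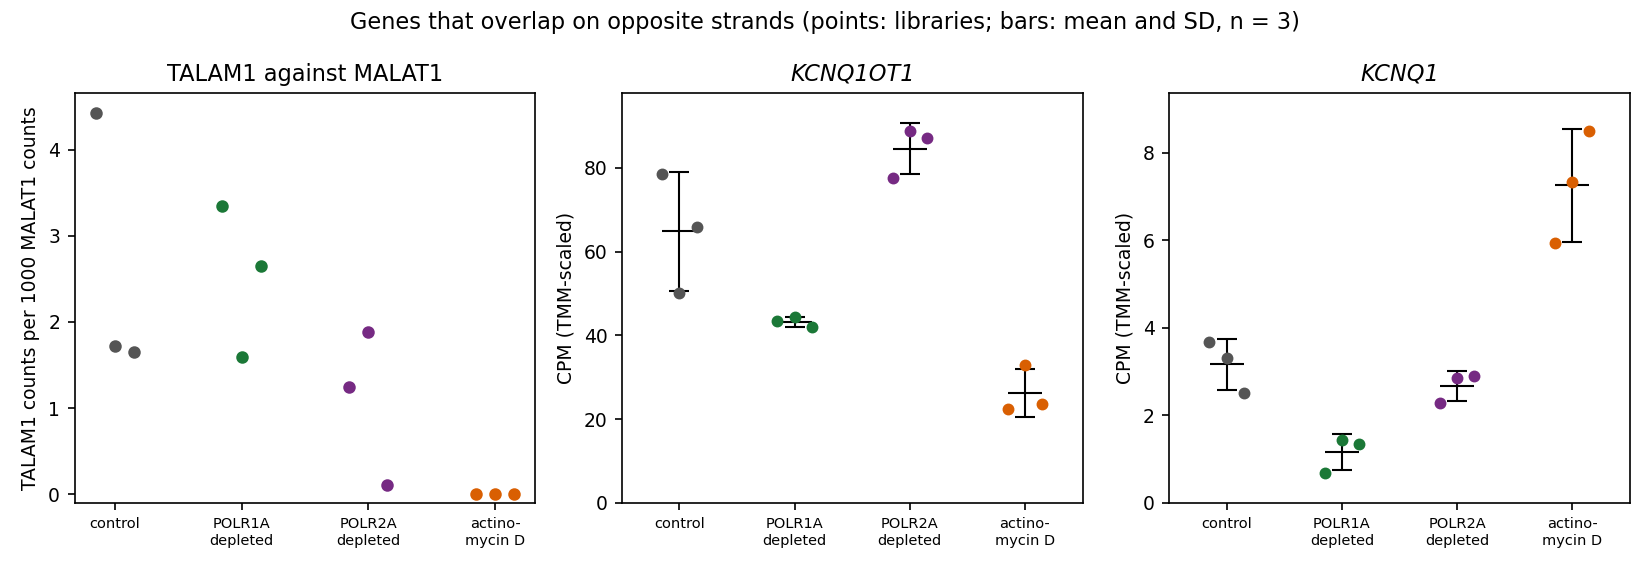
Pairs of genes that overlap on opposite strands. The left panel gives TALAM1 counts for every 1000 MALAT1 counts, which reach 4.43 in control replicate 1 and are 0 with actinomycin D, and the other panels give KCNQ1OT1 and KCNQ1 in CPM, with points for libraries and bars for the mean and SD of 3. KCNQ1OT1 is lowest and KCNQ1 highest in the actinomycin D libraries.

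KCNQ1OT1 was lower with actinomycin D than in every other group, and its highest mean was in the POLR2A-depleted group. The gene (ENSG00000269821) spans chr11:2608328-2699994 on the minus strand, is annotated as exonic throughout, and lies wholly inside KCNQ1 (chr11:2444684-2849110, plus strand). Controls held 78.5, 50.2 and 66 CPM (mean 64.9 ± 14.2). Actinomycin D libraries held 22.4, 32.8 and 23.6 CPM, all below the lowest control. The log2 fold change was -1.29 (SE 0.18, edgeR adjusted p = 0.000197), and with the mitochondrial scaling it was -0.42 and did not pass (adjusted p = 0.17).

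With POLR1A depleted KCNQ1OT1 held 43.5, 44.3 and 41.9 CPM, again below every control. The log2 fold change was -0.58 (SE 0.17, edgeR adjusted p = 0.0255). Its size stayed between -0.73 and -0.42 when any 1 library was left out, but its adjusted p was above 0.05 without POLR1A-depleted replicate 1 (-0.58, adjusted p = 0.072), replicate 2 (-0.59, 0.0649) or replicate 3 (-0.55, 0.0831). The call was also lost without control replicate 1 (-0.42, adjusted p = 0.0787) or control replicate 3 (-0.56, 0.0776), and with library totals alone (-0.55, 0.0663) or the mitochondrial scaling (-0.27, 0.46). POLR2A-depleted libraries held 77.6, 88.9 and 87.1 CPM and overlapped the controls at their lower end. Their log2 difference of 0.39 (SE 0.17, edgeR adjusted p = 0.0799) did not pass, but it did without control replicate 1 (0.52, adjusted p = 0.0219), with RLE size factors (0.44, 0.0374), with DESeq2 (0.43, 0.00358) and without the filter (0.29, 0.00525).

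The treatments differed from each other in KCNQ1OT1. It was lower with POLR1A than with POLR2A depleted by a log2 difference of -0.97 (edgeR adjusted p = 0.000873), which did not pass with the mitochondrial scaling. Actinomycin D libraries were lower than both, by -0.71 against POLR1A depletion (adjusted p = 0.00792) and -1.68 against POLR2A depletion (adjusted p = 2.06e-05), and neither passed with the mitochondrial scaling (-0.16 and -0.49).

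KCNQ1, a potassium channel gene, was looked at because KCNQ1OT1 lies inside it, and it falls outside the rule for named genes. Its levels were low, at 3.67, 3.3 and 2.51 CPM in controls and 0.674, 1.43 and 1.34 with POLR1A depleted. With actinomycin D they were 5.93, 7.33 and 8.5 CPM, all above the controls. KCNQ1 thus fell with POLR1A depleted (log2 fold change -1.44, SE 0.28, edgeR adjusted p = 0.000208) and rose with actinomycin D (1.21, SE 0.24, adjusted p = 0.000244), while with POLR2A depleted it differed by -0.23 (SE 0.26, adjusted p = 0.461). The ratio of KCNQ1OT1 to KCNQ1 was 15.2 to 26.3 in controls and 2.77 to 4.48 with actinomycin D. The POLR1A-depleted libraries gave 31 to 64.5 and the POLR2A-depleted ones 30 to 34.1. Reads from the 2 strands may be mixed in both genes, since the strand setting is not known.

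Of 8 genes of the imprinted domain around KCNQ1OT1, 7 were tested and ASCL2 had no counts. With actinomycin D 5 rose and 1 fell, with a median log2 fold change of 0.7 against -0.06 for all genes. CD81, a tetraspanin gene, rose to 251 CPM from 154 (log2 fold change 0.70), SLC22A18, a transporter gene, rose by 1.00, and TSSC4 fell by 2.64 on the log2 scale, from 24.5 to 3.9 CPM. With POLR2A depleted 2 rose and 2 fell, led by SLC22A18 (1.51), and with POLR1A depleted 2 rose and 2 fell, led among the named genes by SLC22A18 (0.68). The 2 falls with POLR2A depleted were not called with RLE size factors, library totals alone or DESeq2, or without control replicate 2, and 1 was called without POLR2A-depleted replicate 2. With POLR1A depleted the number that rose was 4 without control replicate 2 and 1 without POLR1A-depleted replicate 3 or control replicate 3, and the number that fell was 1 without POLR1A-depleted replicate 1, control replicate 1 or control replicate 2. With the mitochondrial scaling 4 rose and 1 fell for POLR1A (median 0.43 against 0.07), 1 rose and 3 fell for POLR2A (-0.42 against -0.1), and 6 rose and 1 fell with actinomycin D.

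In CPM scaled by TMM, the mRNAs of all 3 DBHS proteins rose with actinomycin D, while with POLR2A depleted NONO fell and PSPC1 rose. The rise of SFPQ did not pass when library totals alone were used. NONO and SFPQ bind each other and NEAT1 and are needed for paraspeckles, and PSPC1 is their paralog. NONO (ENSG00000147140) lies at chrX:71283192-71301168 on the plus strand, SFPQ (ENSG00000116560) at chr1:35176378-35193148 on the minus strand and PSPC1 (ENSG00000121390) at chr13:19674752-19783019 on the minus strand. Per kilobase of exon, control means were 89.4 CPM for NONO, 63.6 for SFPQ and 10.6 for PSPC1.

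NONO held 461, 485 and 475 CPM in controls and 687, 678 and 691 with actinomycin D, with no overlap. That was a 1.45-fold rise (log2 fold change 0.53, SE 0.05, edgeR adjusted p = 2.17e-09). With POLR2A depleted the 408, 387 and 395 CPM lay below every control, a log2 fold change of -0.26 (SE 0.05, adjusted p = 6.98e-05). Both calls held in every alternative run, with values of 1.45 and -0.55 under the mitochondrial scaling.

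With POLR1A depleted NONO held 428, 425 and 449 CPM, also below every control. The log2 fold change was -0.13 (SE 0.05, edgeR adjusted p = 0.0355), and it turned to 0.22 with the mitochondrial scaling (adjusted p = 0.174). The call was lost without POLR1A-depleted replicate 1 (-0.11, adjusted p = 0.151) or replicate 2 (-0.1, 0.174) and without control replicate 2 (-0.1, 0.115) or replicate 3 (-0.12, 0.117). It was also lost with library totals alone (-0.08, adjusted p = 0.0823) and without the filter (-0.14, 0.121). NONO differed between the 2 depletions by 0.13 (edgeR adjusted p = 0.0197), a call lost without POLR1A-depleted replicate 3 (0.13, 0.0544) or POLR2A-depleted replicate 2 (0.09, 0.125), and with RLE size factors, library totals alone or DESeq2. Without either of those libraries, 3 of the 7 genes rather than 5 passed between the 2 depletions.

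SFPQ passed against the controls with actinomycin D and missed the threshold with either subunit depleted. Controls held 493, 466 and 456 CPM, POLR1A-depleted libraries 455, 446 and 472, and POLR2A-depleted libraries 464, 399 and 447. Each depleted group overlapped the controls. The log2 differences were -0.04 with POLR1A depleted (95% interval -0.16 to 0.07, edgeR adjusted p = 0.592, or 0.29 with the mitochondrial scaling) and -0.11 with POLR2A depleted (95% interval -0.23 to 0.01, adjusted p = 0.0952). The second passed without POLR2A-depleted replicate 1 (-0.17, adjusted p = 0.0272) or control replicate 3 (-0.16, 0.0495), with the mitochondrial scaling (-0.43, 0.00353) and without the filter (-0.21, 0.00266). With actinomycin D SFPQ held 527, 523 and 567 CPM, above every control, a log2 rise of 0.19 (SE 0.06, edgeR adjusted p = 0.00705) that did not pass with library totals alone (0.07, adjusted p = 0.285) and was 1.09 with the mitochondrial scaling. SFPQ was also higher with actinomycin D than with POLR1A depleted (0.24, edgeR adjusted p = 0.00124) or POLR2A depleted (0.30, adjusted p = 7.33e-05), but not with library totals alone (0.07 and 0.06).

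PSPC1 rose with POLR2A depleted, where NONO fell. Its levels were 48.5, 49.5 and 55 CPM in controls, 82.4, 77.7 and 81.6 with POLR2A depleted, and 77.6, 73.5 and 73.5 with actinomycin D. Neither treated group overlapped the controls. The rise was 1.58-fold with POLR2A depleted (log2 fold change 0.66, SE 0.06, edgeR adjusted p = 6.45e-09) and 1.47-fold with actinomycin D (0.55, SE 0.06, adjusted p = 7.13e-08), and both held in every alternative run (0.37 and 1.47 with the mitochondrial scaling). With POLR1A depleted the 50.1, 48.7 and 46.9 CPM overlapped the controls (log2 difference -0.07, 95% interval -0.20 to 0.05, adjusted p = 0.384), and the difference was 0.29 with the mitochondrial scaling.

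PSPC1 was lower with POLR1A than with POLR2A depleted by a log2 difference of -0.73 (edgeR adjusted p = 9.23e-10), which was -0.08 with the mitochondrial scaling (adjusted p = 0.636). Actinomycin D and POLR2A depletion differed in PSPC1 by -0.11 (edgeR adjusted p = 0.112). That difference passed with library totals alone (-0.35, adjusted p = 2.83e-05) and with only the 2 groups fitted (-0.13, 0.039), and it turned to 1.1 with the mitochondrial scaling (9.28e-11). NONO was higher with actinomycin D than with POLR2A depleted by 0.79 (adjusted p = 3.63e-12) and than with POLR1A depleted by 0.66 (adjusted p = 5.3e-11). For actinomycin D against POLR1A depletion all 7 genes passed, 4 higher and 3 lower, where 56.2% of all genes did (24.4% higher and 31.8% lower). Against POLR2A depletion 6 passed, 3 in each direction, where 70.9% did (31.1% higher and 39.8% lower). Between the 2 depletions 5 passed, 2 higher and 3 lower with POLR1A depleted (29.1% and 33.2% of all genes). Libraries did not overlap for 7 genes between actinomycin D and POLR1A depletion (63.3% of all genes), for 7 between actinomycin D and POLR2A depletion (74.3%) and for 6 between the depletions (68.5%).

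Within a library, the makeup of the 3 DBHS mRNAs does not depend on the scaling. Per kilobase, PSPC1 made up 6.15% to 7.02% of their sum in controls and 6.87% to 7.42% with actinomycin D. Its share was 6.15% to 6.81% in the POLR1A-depleted libraries and 10.9% to 11.3% in the POLR2A-depleted ones. NONO made up 53.2% to 55.6% in controls, 58.8% to 59.9% with actinomycin D and 49.2% to 51.2% when POLR2A was depleted. SFPQ made up 37.8% to 40.6% in controls and 32.7% to 34.4% with actinomycin D. The shares of PSPC1 and NONO thus stood apart from the controls with POLR2A depleted, and those of NONO and SFPQ with actinomycin D.

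**Figure D3:**
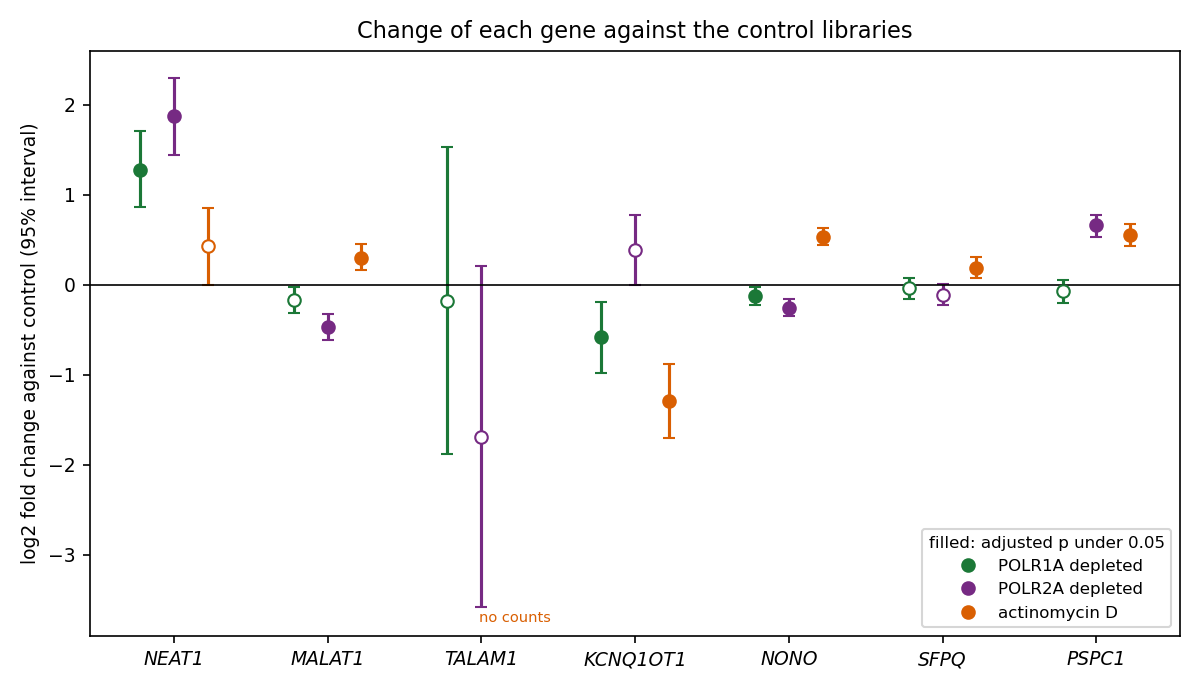
Log2 fold change of each gene against the 3 controls, with 95% intervals. Filled points passed an adjusted p of 0.05 in edgeR's test and open points did not, and TALAM1 with actinomycin D is marked as having no counts. NEAT1 shows the largest rise among the points, 1.87 with POLR2A depleted, and PSPC1 rises there (0.66) while NONO falls (-0.26).

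Genes of other paraspeckle proteins were read against the medians of all genes given above. Counts in this and the following lists are to be read against the share of all genes that passed. With POLR1A depleted that share was 39.1% (20.6% higher and 18.6% lower). It was 61.4% with POLR2A depleted (33.2% and 28.2%) and 53.4% with actinomycin D (24.9% and 28.5%). Of 6 further proteins needed for paraspeckle assembly, 3 fell and 3 did not pass with POLR1A depleted, with a list median of -0.20, led by RBM14 (log2 fold change -0.63). With the mitochondrial scaling 1 rose and 5 did not pass. With POLR2A depleted 3 fell and 3 did not pass (median -0.13), led by HNRNPH3 (-0.64), or 5 fell without the filter. The mitochondrial scaling gave 5 that fell there, and library totals alone gave 1 that rose and 2 that fell. With actinomycin D 4 rose and 1 fell (median 0.33), and DAZAP1 rose by 0.45, SMARCA4, the chromatin remodelling ATPase, by 0.44, and HNRNPK by 0.42. All 6 rose with the mitochondrial scaling, and 4 rose and 2 fell with library totals alone.

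Among 23 other proteins found in paraspeckles, 4 rose and 13 fell with POLR1A depleted (median -0.23), but 7 rose and 2 fell with the mitochondrial scaling. With POLR2A depleted 1 rose and 17 fell (median -0.57), and the rise was lost without POLR2A-depleted replicate 2 or control replicate 3. There 2 rose and 15 fell with library totals alone, and 0 rose and 20 fell with the mitochondrial scaling. RBM12 had log2 fold changes of -1.06 and -1.27 in these 2 comparisons, and with POLR2A depleted CPSF7, a subunit of a 3′ end processing complex, had -1.17 and TARDBP, a gene of an RNA-binding protein, had -1. With actinomycin D 10 rose and 8 fell (median 0.07), or 21 rose and 1 fell with the mitochondrial scaling, and RBM7 (-1.33) and ZNF24 (-0.85) fell furthest.

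The 8 genes of nuclear speckle proteins, the bodies in which MALAT1 gathers, all fell with POLR2A depleted (median -0.95). With POLR1A depleted 6 fell and 1 rose (median -0.44), or 1 fell and 2 rose with the mitochondrial scaling, and 2 also rose without control replicate 2. The splicing factor gene SRSF2 had log2 fold changes of -0.68 with POLR1A depleted and -1.11 with POLR2A depleted, and actinomycin D gave -0.38. With actinomycin D 3 fell and 5 did not pass (median -0.03), against 6 that fell with library totals alone and 8 that rose with the mitochondrial scaling.

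Of 12 genes for proteins that act on the 3′ ends shown above (RNase P subunits, the RNase Z enzyme ELAC2 and METTL16), 8 fell and 1 rose with POLR2A depleted (median -0.80), a rise lost without POLR2A-depleted replicate 2, control replicate 1 or control replicate 3. RPP40 fell from 13.9 to 3.74 CPM there (log2 fold change -1.90). Library totals alone gave 7 that fell and 2 that rose with POLR2A depleted, and the mitochondrial scaling gave 9 and 0. With actinomycin D 7 fell and 2 rose (median -0.85), or 2 fell and 5 rose with the mitochondrial scaling, and RPP38 fell from 19.9 to 1.75 CPM (-3.49) and POP7 from 37.2 to 6.72 (-2.47). With POLR1A depleted 6 fell and 1 rose (median -0.30), and POP1, an RNase P subunit, had -0.68. The rise was lost without POLR1A-depleted replicate 1, control replicate 1 or control replicate 3, and with the mitochondrial scaling 1 rose and 11 did not pass.

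Of 11 genes beside NEAT1 and MALAT1 on chromosome 11, 5 rose and 1 fell with POLR1A depleted (median 0.09), 5 rose and 4 fell with POLR2A depleted (0.13, or -0.16 with the mitochondrial scaling), and 3 rose and 4 fell with actinomycin D (-0.11, with 7 that fell under library totals alone and 8 that rose under the mitochondrial scaling). Of all genes tested, 39.1%, 61.4% and 53.4% passed in these 3 comparisons. The single fall among the 11 genes with POLR1A depleted was lost without any one of the POLR1A-depleted libraries or control replicate 1, and with library totals alone. With the mitochondrial scaling 7 rose and 4 did not pass for POLR1A (median 0.44), and 2 rose and 5 fell for POLR2A. FAM89B rose in all 3 comparisons, with log2 fold changes of 0.66, 0.56 and 1.09, and CDC42EP2, a gene of a CDC42 effector, fell from 21.1 to 7.77 CPM with POLR2A depleted (-1.45). With actinomycin D CDC42EP2 held 0.857 CPM (-4.51). FRMD8, the listed gene closest to NEAT1, had log2 fold changes of 0.33 with POLR1A depleted and -1.29 with actinomycin D. Its mean with POLR2A depleted was 45 CPM against 38.3 in controls.

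Of 14 other widely expressed lncRNAs, 11 fell and 3 did not pass with POLR2A depleted (median -0.72), where NEAT1 rose. The highest log2 fold change among the 14 was 0.74. With RLE size factors 1 rose and 11 fell, and with library totals alone 2 rose and 11 fell. SNHG1 and GAS5, host genes of small nucleolar RNAs, had log2 fold changes of -2.37 and -1.67. With actinomycin D 1 rose and 9 fell (median -0.58), led by CYTOR (-1.79) and LINC-PINT (-1.71), or 2 rose without control replicate 3 and 6 rose and 3 fell with the mitochondrial scaling. With POLR1A depleted 2 rose and 5 fell (median 0.01), against 6 and 3 with the mitochondrial scaling and 1 rise without POLR1A-depleted replicate 1 or control replicate 2, and FIRRE had -1.22 and SNHG1 -0.97.

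**Figure D4:**
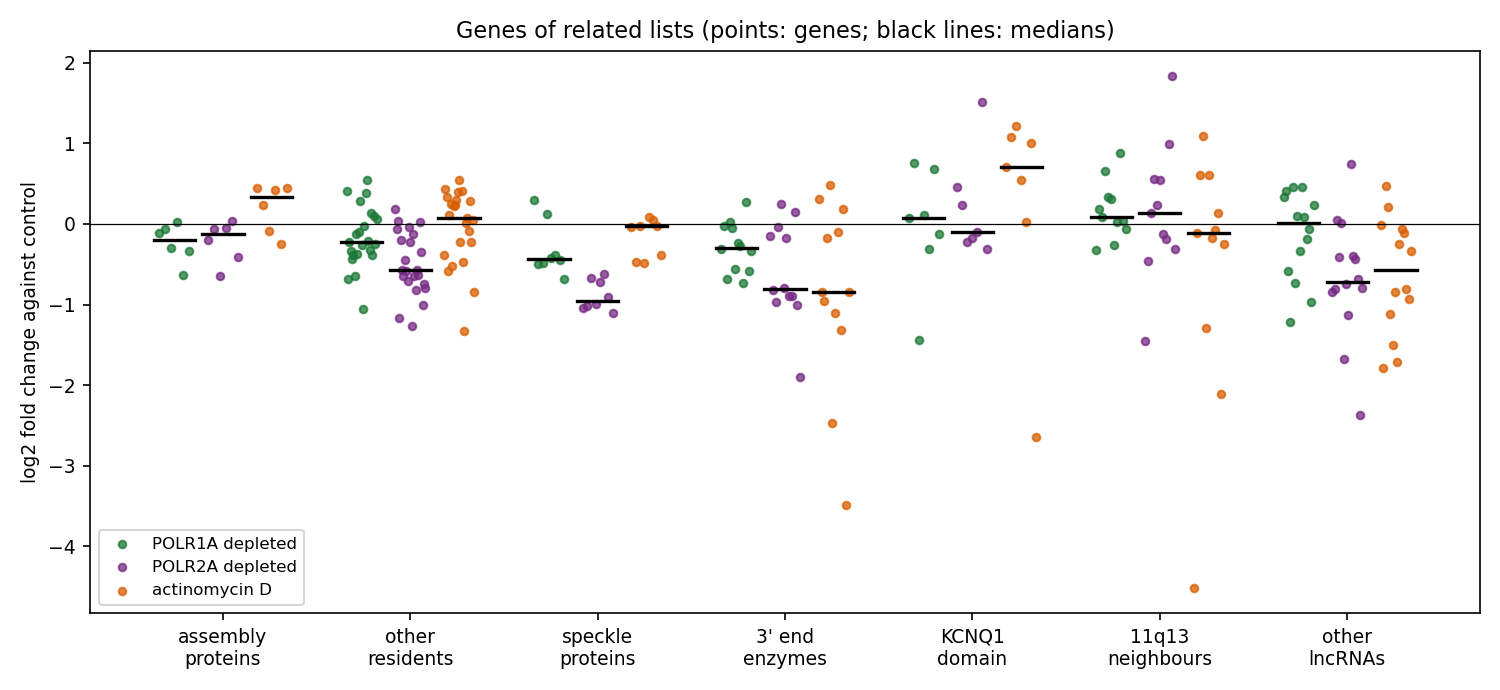
Log2 fold change against the controls for the tested genes of 7 related lists, with 1 point for each gene and a black line at the median of a list. The speckle genes all lie below 0 with POLR2A depleted, with a median of -0.95, and the lowest point is CDC42EP2 with actinomycin D at -4.51.

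Across the 12 libraries, the log2 CPM of 10428 genes was compared with those of NEAT1, MALAT1 and SFPQ. The points share groups and controls, so the correlations describe the pattern of group means. TTLL3, a tubulin-modifying enzyme gene, was most like NEAT1 (Pearson's r = 0.984), followed by CRELD1 (0.965) and ZNF75D (0.964). TTLL3 had log2 fold changes of 1.13 (POLR1A depleted), 1.97 (POLR2A depleted) and 0.40 (actinomycin D). IL17RD (0.978), HNRNPH1 (0.974), itself on the list of paraspeckle proteins, and IGF2BP2 (0.971) were most like MALAT1. For SFPQ these were KIAA1143 (0.961), GPS2 (0.934) and JTB (0.931).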

How the data were processed

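Total RNA of 12 HCT116 libraries (4 groups of 3, grouped by sample title) was rRNA-depleted and made into libraries with a stranded kit, per the labels' protocols. The deposited values are estimated counts per gene, which need not be whole. Tools listed in the submitters' processing notes, with no step given, include RSEM 1.3.3, STAR, Trim Galore 0.6.10, HTSeq 2.0.2 and DESeq2 1.44.0, with builds GRCh38 and hg38. No source used here gives the strand setting or the annotation release.

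Estimated counts were rounded, filtered with filterByExpr (23593 of 63241 genes) and scaled by TMM. All 12 libraries entered 1 quasi-likelihood fit in edgeR 4.0.16 (R 4.3.3) with a mean for each group and robust moderation. SE was the log2 fold change divided by the root of F, and log2 CPM used a prior count of 2. The call threshold was 0.05 on the p-value adjusted by Benjamini-Hochberg in each of 6 comparisons. The step was also run on simulated data, and no outcome of that run is used here. Alternatives were RLE factors, library totals, scaling to 13 mitochondrial mRNAs, DESeq2 1.42.0, no filter, only the groups compared, a replicate block and leaving out each library.

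Coordinates and exon lengths came from GENCODE 29, which held 58228 of the identifiers, and TALAM1's from RefSeq. MATR3 had 2 identifiers and the longer was used. Replicates of a group differed by more than sampling noise. The members and lists were chosen with earlier results of these data known. Named from each list were up to 3 called genes with the largest changes against controls and an average log2 CPM of 3 or more. For NEAT1, MALAT1 and SFPQ the 3 most correlated genes were named.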

Additional observations from a re-analysis of the deposited data

How the results depend on the processing

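Of the alternatives for single genes, 489 stayed on their side of the threshold, 35 lost the call and 19 gained one. Of the 489, 9 had the opposite sign without passing either way, 4 of them with the mitochondrial scaling. In 3 further alternatives, all with that scaling, the sign turned for a value called there or in the reported fit: NONO with POLR1A depleted (0.22), NEAT1 between the 2 depletions (0.06) and PSPC1 between actinomycin D and POLR2A depletion (1.1). The number of the 7 genes called with POLR1A depleted was 1 with a replicate block, with library totals alone and with the mitochondrial scaling, and between the 2 depletions it was 3 with the mitochondrial scaling. The causes were not tested. Leaving out 1 library gave 1 to 3 genes for POLR1A depletion, 4 to 5 for POLR2A depletion, 6 to 6 for actinomycin D, 3 to 5 between the depletions, 7 to 7 for actinomycin D against POLR1A depletion and 6 to 6 against POLR2A depletion. Same-numbered libraries did not deviate together (correlations -0.06 to 0.04, and 4 of 36 best with their own number), so the numbers do not pair them, and under the replicate block KCNQ1OT1 (-0.58, adjusted p = 0.0592) and NONO (adjusted p = 0.0613) lost their calls with POLR1A depleted. Of 546 alternative list counts, 469 stayed within 1.5 times. TALAM1 held 0 to 1294 counts over a group, and the POLR2A-depleted libraries spread from 0.746 to 11.4 CPM.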
